A study of Arabidopsis thaliana with 8 samples.

Results

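Stomata are pores in the leaf epidermis, each bounded by a pair of guard cells, and 10 Arabidopsis thaliana genes that control how they form were followed through 8 ATAC-seq peak lists. ATAC-seq uses the transposase Tn5 to cut DNA that is free of nucleosomes, so that a peak marks chromatin that was open in the nuclei sampled. The genes were SPCH (AT5G53210), MUTE (AT3G06120), FAMA (AT3G24140), ICE1 (AT3G26744), SCRM2 (AT1G12860), TMM (AT1G80080), EPF1 (AT2G20875), EPF2 (AT1G34245), ERL1 (AT5G62230) and ERL2 (AT5G07180). They were chosen by identifier for their known function and not by any measured value, out of 27432 protein-coding genes of the 5 nuclear chromosomes. Earlier results of these data were known when the choice was made. A peak was counted for a gene when at least 1 bp of it lay in the gene or within 1000 bp on either side, here called the gene's window.

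The libraries came from shoots of 2 recombinant inbred lines of the cross Ler x Cvi, RIL149 and RIL50, each sampled at generation 10 and at generation 3 in lineages 1 and 2. Generations are given as the sample labels have them, and the names of the deposited lists count each generation 1 lower. That gave 2 libraries for each line and generation and 4 for each line. Seedlings had grown for 7 to 9 days on half-strength medium at 25 °C in 16 h of light and 8 h of dark, and all groups shared these conditions. In RIL149 lineage 2 both generations carry sublineage 1, while in the other lineages generation 10 carries sublineage 2 and generation 3 carries sublineage 1. The labels do not say whether a library came from 1 plant or from several, so the spread that p-values rest on may be partly technical. Each line is a single inbred genotype that mixes both parents, so a difference between the lines is not one between Ler and Cvi as a whole. The labels do not say which parent's allele a line carries at a given gene.

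In the stomatal lineage, the basic helix-loop-helix factors SPCH, MUTE and FAMA act in sequence at the entry of epidermal cells into the lineage, at the change to a guard mother cell and at the last division and guard cell fate. Each pairs with ICE1 (also called SCREAM) or the related SCRM2. The secreted peptides EPF2 and EPF1 restrict the entry into the lineage and the spacing of stomata, and are perceived by receptor kinases of the ERECTA family, which include ERL1 and ERL2, together with the receptor-like protein TMM. A few cells of a young shoot are in this lineage at any time, so these libraries average them with many other cells, and fewer open cells of a type cannot be told apart from less open chromatin in each cell.

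The lists held 13186 to 21540 nuclear peaks per library. The local background that the peak caller compared with, recovered from the listed values, was a pileup (the number of overlapping fragments) of 8.7 to 25.3, and the weakest peaks listed at that background had a fold enrichment of 1.56 to 1.96. A missing peak therefore means only that no enrichment passed the caller's threshold in that library. The RIL149 generation 3 lineage 2 library stood apart: it listed 13186 peaks and had a peak at 47.9% of protein-coding genes, against 58.9% to 68.7% in the other libraries. Shoot markers were open, with peaks at 5 of 5 photosynthesis genes in all 8 libraries. Of 10 root markers, 6 had a peak in some library: CASP1 in 8, EXPA7 in 6, COBL9 in 4, WOX5 in 5, SMB in 1 and BRN1 in 3, while PLT1, PLT2, RHD6 and BRN2 had none. Of the guard cell markers, the potassium channel gene KAT1 and MYB60 had a peak in all 8 libraries, SCAP1 in 1 library and the anion channel gene SLAC1 in none. Of the epidermal and trichome markers, GL2 had a peak in all 8 libraries, ATML1 in 6 (2 of RIL149 and 4 of RIL50), PDF2 in 1, and GL1 and GL3 in none.

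Peaks at the stomatal genes were about as common as at other genes. Of the 10 genes, 5 had a peak in all 8 libraries (SPCH, MUTE, TMM, EPF2 and ERL1), against 45.2% of all protein-coding genes, and 1 had a peak in none, against 26.6%. ICE1 and EPF1 had a peak in 7 libraries, all but RIL149 generation 3 lineage 2, and 1770 other genes (6.45%) had that same pattern of presence. ERL2 had a peak in 4 libraries, FAMA in 1 and SCRM2 in none. With RIL149 generation 3 lineage 2 left out, 7 of the 10 genes had a peak in every remaining library. That library had peaks at 5 of the 10 genes, and the others at 7 to 9.

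**Figure D1:**
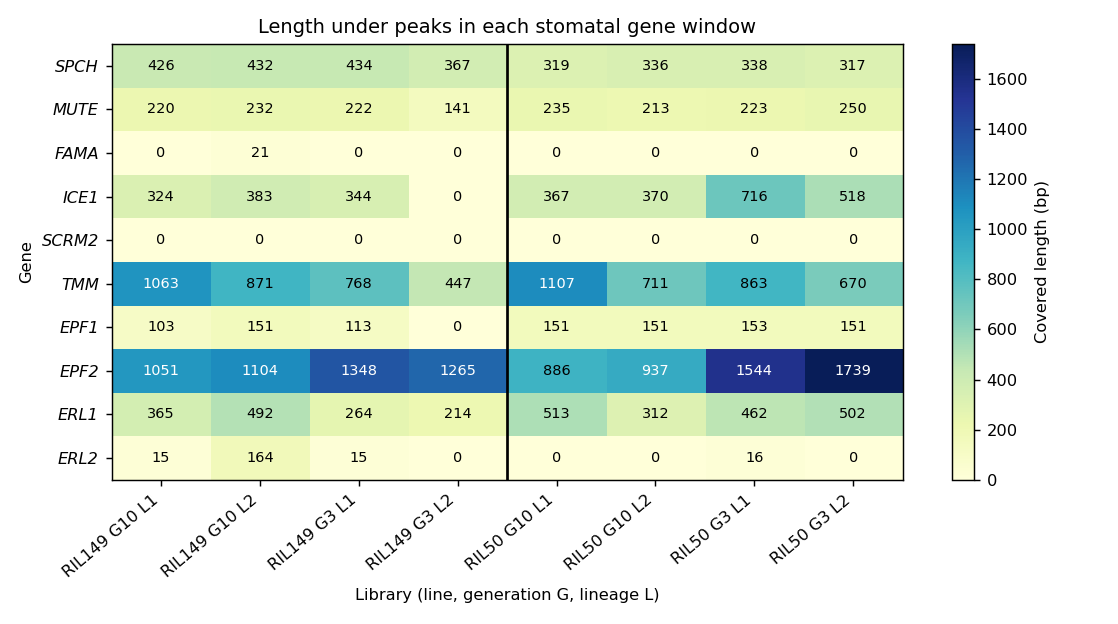
Length of each gene window lying under listed peaks, in bp, for the 10 stomatal genes (down) in the 8 libraries (across; G is generation and L is lineage, with a black line between RIL149 and RIL50). EPF2 and TMM had the longest covered stretches, and SCRM2 was at 0 in every library.

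SPCH, whose protein starts the lineage, had 1 strong peak in every library and none elsewhere in its window. The peak lay on chromosome 5 between 21585123 and 21585652 (TAIR10, over all libraries), wholly outside the gene on the side of lower coordinates (strand is not used here). Its summit was 1155 to 1187 bp from the next locus, TRY, a trichome gene, and 789 to 821 bp from SPCH. The fold enrichment at the summit, as the authors' caller gave it, was 13.3 and 16.0 in RIL149 generation 10, 10.63 and 9.52 in RIL149 generation 3, 8.65 and 10.52 in RIL50 generation 10, and 15.45 and 8.61 in RIL50 generation 3. These folds belong to lists called separately and serve here only to rank a peak within its own list. In every library the SPCH peak ranked high, with 85.9% to 96.5% of the peaks of the same list at or under its fold.

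The side of the SPCH peak that faces the gene lay closer to the gene in RIL149 than in RIL50. The gap between peak and gene was 575 and 569 bp in RIL149 generation 10 and 567 and 634 bp in RIL149 generation 3, against 682 and 665 bp in RIL50 generation 10 and 663 and 684 bp in RIL50 generation 3. The lines did not overlap, and the means were 586.2 ± 32.0 bp in RIL149 and 673.5 ± 11.0 bp in RIL50 (SD, n = 4 each). A difference of 87.25 bp (SE 16.55) did not pass limma across the 9186 regions with exactly 1 peak per library (adjusted p = 0.147), where 0.61% of regions passed for this edge. The exact permutation test for this 1 value gave p = 0.0286, the smallest that the 70 arrangements of 8 libraries allow (two-sided). In 1.43% of the regions this edge likewise lay at higher coordinates in all RIL149 libraries than in any RIL50 library. The RIL149 library closest to RIL50 was generation 3 lineage 2, and without it the difference was 103.5 bp and passed (limma, adjusted p = 0.0161), where 0.914% of regions passed. Without any 1 of the other libraries the adjusted p was 0.18 to 0.436.

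The SPCH summits were offset the same way by less. They lay 789 and 794 bp from the gene in RIL149 generation 10 and 790 and 796 bp in RIL149 generation 3, against 819 and 798 bp in RIL50 generation 10 and 810 and 821 bp in RIL50 generation 3. The lines differed by 19.75 bp (SE 6.31) without overlap, which did not pass limma (adjusted p = 0.468, where 0.697% of regions passed), and 2.24% of regions had summits separated in that direction. The covered length of the SPCH window differed with the edge, because the window ends inside the peak on its far side: it was 426, 432, 434 and 367 bp in RIL149 and 319, 336, 338 and 317 bp in RIL50. The whole peak was 381 to 530 bp wide in RIL149 and 356 to 416 bp in RIL50, and these widths overlapped. Tests of peak position were chosen after the values had been seen.

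**Figure D2:**
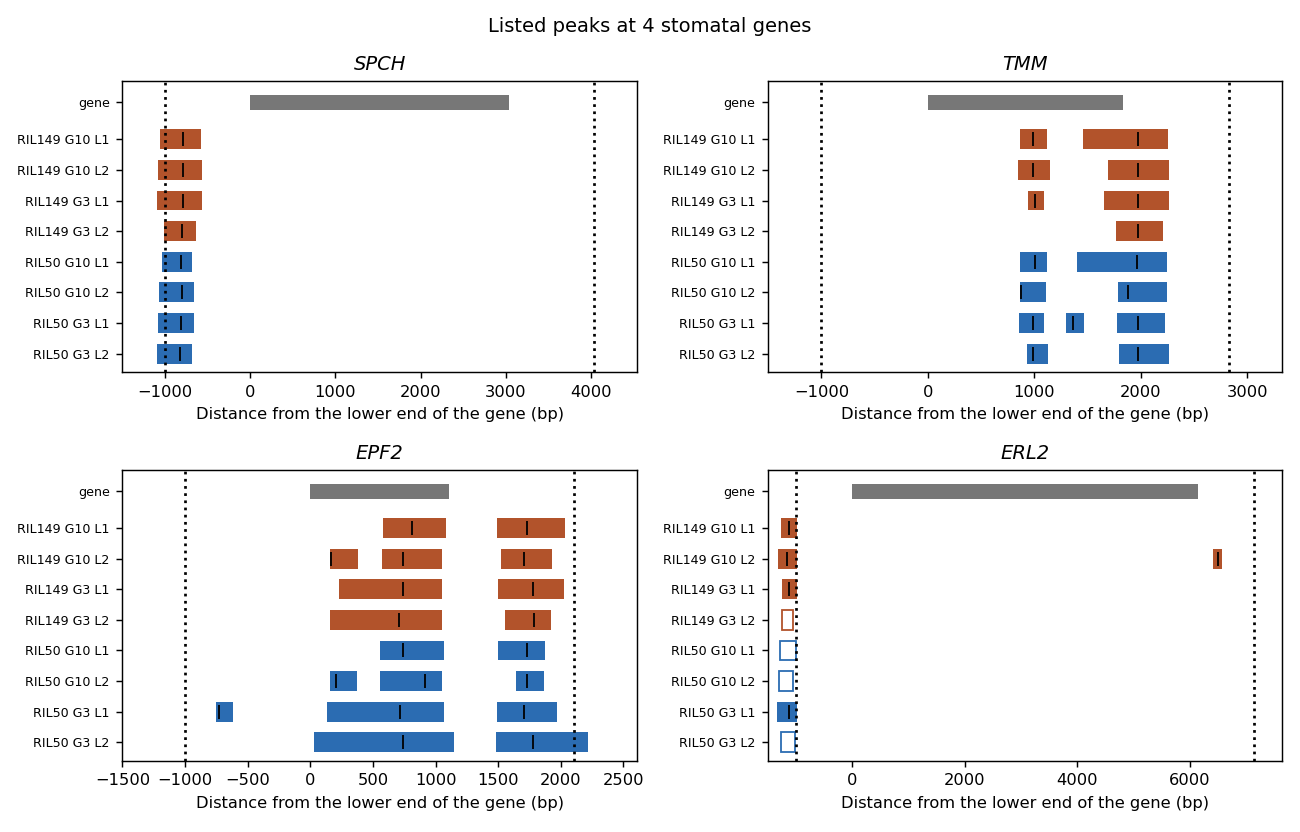
Listed peaks at SPCH, TMM, EPF2 and ERL2 in each library (orange, RIL149; blue, RIL50; black ticks, summits), drawn by distance in bp from the lower-coordinate end of the gene (grey bar), with dotted lines at the window ends 1000 bp out. Open bars are the nearest peaks just outside the window; at ERL2 the same site falls inside it in 4 libraries and outside it in the other 4, and at EPF2 the widest peak is longer in generation 3.

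MUTE, whose protein ends the stem-cell-like divisions of the lineage, had 1 small peak per library on chromosome 3 between 1848643 and 1848892, on the side of higher coordinates. Its fold was 3.56 and 3.98 in RIL149 generation 10, 4.22 and 2.36 in RIL149 generation 3, 3.86 and 5.36 in RIL50 generation 10, and 4.99 and 3.54 in RIL50 generation 3. The peak was of middling to low rank, with 5.6% to 53.4% of its list at or under its fold, and the lowest rank was in RIL149 generation 3 lineage 2. Summits lay 449 to 523 bp from MUTE but 66 to 140 bp from the non-coding locus AT3G06125, so the peak is nearer to that locus than to MUTE. The covered length was 220, 232, 222 and 141 bp in RIL149 and 235, 213, 223 and 250 bp in RIL50, and the lines overlapped.

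FAMA, needed for guard cell identity, had a peak in RIL149 generation 10 lineage 2 alone. That peak, on chromosome 3 from 8719191 to 8719392, had a fold of 2.5 and reached 21 bp into the window, with its summit 1037 bp from the gene and 164 bp from the long non-coding locus AT3G04625. In the library where a peak came closest without reaching the window, it began 1014 bp from the gene. No peak was listed inside the FAMA gene in any library.

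ICE1, the partner also known for its part in the cold response, had a pair of sites in the same 7 libraries. The first, on chromosome 3 between 9835153 and 9835587, lay across the higher-coordinate end of the gene with folds of 3.24 to 4.90. The other, between 9835866 and 9836092, had folds of 3.44 to 5.67, and its summit fell 716 to 734 bp beyond the gene in all 7. A further peak from 9832349 to 9832478, on the opposite side of the gene, was listed only in RIL50 generation 3 lineage 1 with a fold of 2.68. Covered lengths were 324, 383, 344 and 0 bp in RIL149 and 367, 370, 716 and 518 bp in RIL50. The log2 difference of -0.90 (SE 0.55) between the lines did not pass (limma, adjusted p = 0.753), and it was -0.30 without RIL149 generation 3 lineage 2, the library with no ICE1 peak. SCRM2, the paralogue of ICE1, had no peak in its window in any library, and the nearest ones lay 2592 to 8754 bp below and 7616 to 7662 bp above the gene.

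EPF1, a peptide that spaces stomata and is made late in the lineage, had 1 site on chromosome 2 between 8984662 and 8984945 in 7 libraries. The fold was 3.63 and 4.49 in RIL149 generation 10, 2.97 in RIL149 generation 3 lineage 1, 4.98 and 4.15 in RIL50 generation 10, and 4.32 and 4.87 in RIL50 generation 3. Summits lay 955 to 996 bp from the gene, so the window end cut through the peak, and the covered length, at most 153 bp, measures mainly that cut. EPF1 itself held no peak.

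EPF2, the peptide that limits entry into the lineage, had, with TMM, the longest covered stretches of the 10 genes in every library, at 2 sites present in all 8. The stronger lay inside the gene on chromosome 1, between 12472896 and 12474013. Its strongest peak had a fold of 10.28 and 11.67 in RIL149 generation 10, 9.87 and 6.87 in RIL149 generation 3, 10.0 and 9.21 in RIL50 generation 10, and 8.83 and 8.67 in RIL50 generation 3, with 78.1% to 91.2% of its list at or under it. The other site, between 12474354 and 12475084, lay beyond the higher-coordinate end with folds of 3.63 to 6.94. A weak peak from 12472114 to 12472248 was found in RIL50 generation 3 lineage 1 only.

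Less of the EPF2 window was covered in generation 10 than in generation 3, in each line. Covered lengths were 1051 and 1104 bp in RIL149 generation 10 against 1348 and 1265 bp in RIL149 generation 3, and 886 and 937 bp in RIL50 generation 10 against 1544 and 1739 bp in RIL50 generation 3. The means were 994.5 ± 100.4 bp in generation 10 and 1474.0 ± 211.9 bp in generation 3 (SD, n = 4 each), and the groups did not overlap. Of all genes tested, 0.179% were separated in that direction. The log2 difference was -0.52 (SE 0.14) while the median of all 19043 genes was 0.16, and with each library centred it was -0.68. Neither value passed limma (adjusted p = 0.551, and 0.313 with centring), and the exact permutation test gave p = 0.0286 for this 1 value, the smallest it allows.

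Less was covered in generation 10 at the peak inside EPF2 in both lines, and at the outer site in RIL50. The strongest peak inside the gene was 505 and 480 bp wide in RIL149 generation 10 against 823 and 894 bp in RIL149 generation 3, and 506 and 499 bp in RIL50 generation 10 against 933 and 1118 bp in RIL50 generation 3. In the lineage 2 libraries of generation 10 a separate short peak, 219 bp wide in RIL149 and 218 bp in RIL50, covered part of the stretch that the wide generation 3 peaks spanned, and in the lineage 1 libraries of generation 10 no peak was listed there. The short peaks were weak, with folds of 1.8 in RIL149 and 2.83 in RIL50. The outer site covered 546 and 405 bp of the window in RIL149 generation 10 against 525 and 371 bp in RIL149 generation 3, and 380 and 220 bp in RIL50 generation 10 against 476 and 621 bp in RIL50 generation 3. The peak found in RIL50 generation 3 lineage 1 only added 135 bp there. Background pileup, which tracks depth, was 13.9 and 20.6 in RIL149 generation 10, 20.5 and 8.9 in RIL50 generation 10, 11.8 and 12.5 in RIL149 generation 3, and 8.7 and 25.3 in RIL50 generation 3, and thus overlapped between the generations. In these values the gap between the generations was wider in RIL50 than in RIL149, and the interaction of line and generation did not pass (0.53 on the log2 scale, SE 0.17, limma, adjusted p = 0.276).

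**Figure D3:**
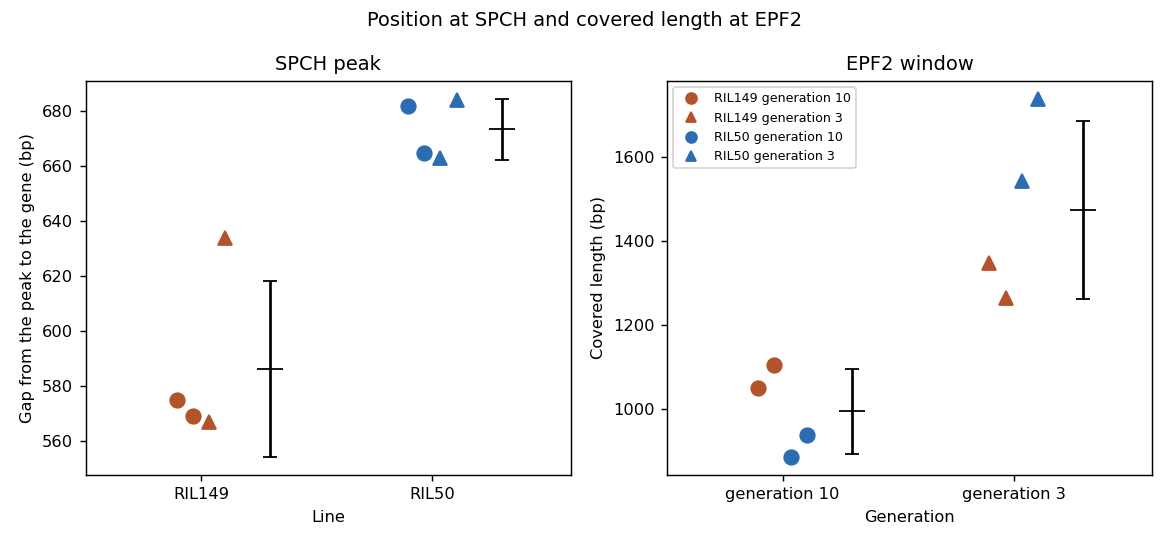
Left, distance in bp between the SPCH peak and the gene by line; right, covered length in bp of the EPF2 window by generation. Points are single libraries (orange, RIL149; blue, RIL50; circles, generation 10; triangles, generation 3), bars are the mean and SD of 4 libraries, the axes do not start at 0, and in each panel the groups are separate.

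TMM, the receptor-like protein that lacks a kinase domain, had a strong site at the higher-coordinate end of its gene, on chromosome 1 between 30129117 and 30130084. Its strongest peak had a fold of 10.82 and 12.03 in RIL149 generation 10, 9.07 and 7.38 in RIL149 generation 3, 9.12 and 10.73 in RIL50 generation 10, and 13.49 and 8.45 in RIL50 generation 3. From 82.5% to 92.3% of the same list lay at or under that fold. Summits fell 136 to 144 bp beyond the gene in 7 libraries and 47 bp beyond it in RIL50 generation 10 lineage 2. A weaker site inside the gene, between 30128669 and 30128966, had folds of 2.33 to 4.63 in 7 libraries and no peak in RIL149 generation 3 lineage 2. TMM was covered over 1063 and 871 bp in RIL149 generation 10, 1107 and 711 bp in RIL50 generation 10, 768 and 447 bp in RIL149 generation 3, and 863 and 670 bp in RIL50 generation 3. The generations overlapped, and the log2 difference of 0.41 (SE 0.22) did not pass (limma, adjusted p = 0.665). It was 0.24 without RIL149 generation 3 lineage 2 and 0.25 with each library centred.

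ERL1, the ERECTA-family receptor linked to EPF1 perception, had 1 site at the lower-coordinate end of its gene, on chromosome 5 between 24995663 and 24996180. The fold was 3.56 and 4.62 in RIL149 generation 10, 3.98 and 4.28 in RIL149 generation 3, 3.51 and 4.25 in RIL50 generation 10, and 5.22 and 3.39 in RIL50 generation 3. The peak was of middling rank, with 31.6% to 50.5% of its list at or under its fold. The summit stayed 262 to 369 bp from the gene, while the covered length ran over 365, 492, 264 and 214 bp in RIL149 and 513, 312, 462 and 502 bp in RIL50, with overlap between the lines.

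ERL2, its close relative, shows how a fixed window decides presence. A site on chromosome 5, reaching from 2226096 to 2226454 in the libraries counted, was listed in all 8 libraries, but its inner edge fell on the window end. It entered the window by 15 or 16 bp in RIL149 generation 10 (both lineages), RIL149 generation 3 lineage 1 and RIL50 generation 3 lineage 1, with folds of 8.67, 8.51, 6.88 and 8.24. It stopped 1066 bp from the gene in RIL149 generation 3 lineage 2 (fold 4.06), 1003 bp in RIL50 generation 10 lineage 1 (fold 6.14), 1060 bp in RIL50 generation 10 lineage 2 (fold 7.99) and 1030 bp in RIL50 generation 3 lineage 2 (fold 4.42). With windows of 2000 bp on either side ERL2 had a peak in 8 of 8 libraries. The count of 3 RIL149 libraries and 1 RIL50 library thus records on which side of the window end that edge fell. The site lies at the loci AT5G01345, a long non-coding RNA, and AT5G07175. A separate weak peak above ERL2, from 2233856 to 2234004, was in RIL149 generation 10 lineage 2 alone (fold 2.13).

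**Figure D4:**
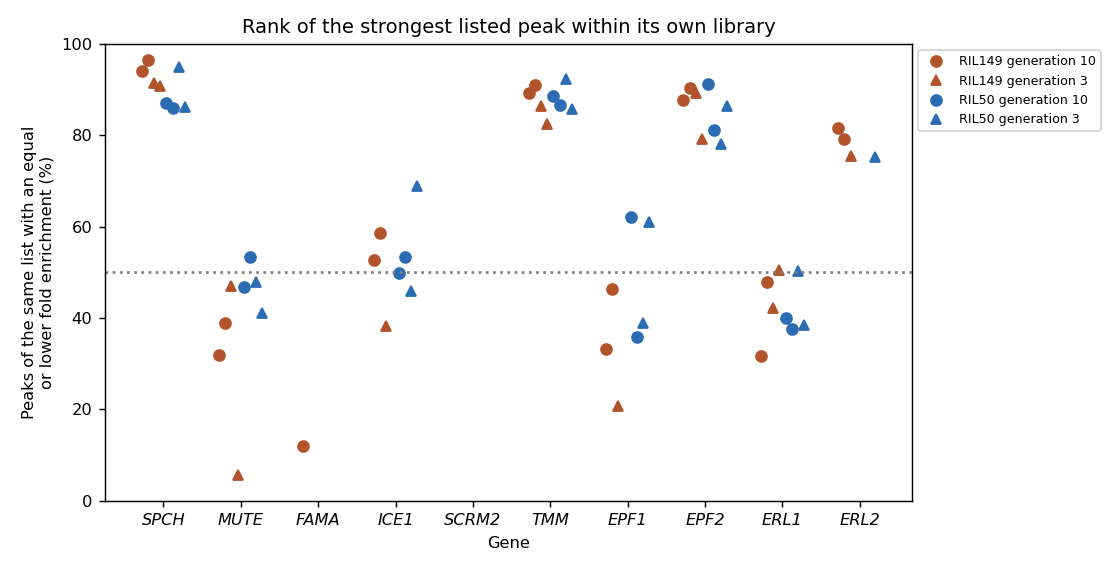
Share of the peaks of the same list, in percent, whose fold is at or under that of the strongest peak in each gene window; points are libraries (orange, RIL149; blue, RIL50; circles, generation 10; triangles, generation 3) and the dotted line marks 50%. SPCH, TMM and EPF2 sit above 75% in all 8 libraries, and MUTE, EPF1 and ERL1 mostly lie below 50%. ERL2 sits above 75% in the 4 libraries where its main site enters the window. In the other libraries that site ended outside the window, with folds of 4.06 to 7.99, and its rank there is not drawn.

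By role, the 3 sequential factors differed among themselves, with a strong peak at SPCH and a small one at MUTE in all 8 libraries and the edge of a peak at FAMA in 1. Of their partners, ICE1 had peaks in 7 libraries and SCRM2 in none, and 1 of the 2 peptides and 2 of the 3 receptors had a peak in all 8. A peak that overlapped the gene itself was listed in all 8 libraries for EPF2 and TMM only. The sites of SPCH, MUTE, EPF1 and ERL2, and the outer sites of ICE1 and EPF2, lay wholly outside the genes.

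Set against all genes, covered length did not pass for any stomatal gene in either comparison. The test was limma on log2(covered length + 100 bp) across the 19043 genes with a peak in at least 2 libraries, which took in 8 of the 10 genes and left out FAMA and SCRM2. For RIL149 against RIL50, with generation in the fit, 0 of the 8 passed an adjusted p of 0.05, where 1.39% of all genes did (264, of which 96 were higher and 168 lower in RIL149; with each library centred 443, of which 241 were higher and 202 lower). The count over all genes was 419 without RIL149 generation 3 lineage 2. With the same number of peaks taken from every library it was 406, of which 157 were higher and 249 lower in RIL149. One of the 8, SPCH, had an unadjusted p under 0.05 (p = 0.0304, log2 difference 0.27, SE 0.10), where 9.48% of all genes had one, and by the exact permutation test SPCH alone reached p = 0.0286. SPCH covered length was separated between the lines, as it was for 1.25% of all genes in that direction. The log2 differences ran from -0.90 for ICE1 to 0.40 for ERL2, with a median of -0.12 against -0.08 over all genes. ERL2 was at 0.08 without RIL149 generation 10 lineage 2, and at 0.10 with peaks of a −log10 q of at least 5. The median of the 8 was 0.0034 without RIL149 generation 3 lineage 2 (0.017 over all genes), -0.22 without RIL50 generation 10 lineage 2, -0.19 without RIL149 generation 3 lineage 1 and -0.075 without RIL50 generation 3 lineage 1.

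For generation 10 against generation 3, with line in the fit, 0 of the 8 passed, where 0.315% of all genes did (60, of which 59 were higher and 1 lower in generation 10; with the same number of peaks taken from every library 50, of which 29 were higher and 21 lower). The count over all genes was 163 without RIL50 generation 10 lineage 2, 127 without RIL50 generation 3 lineage 1, 108 without RIL50 generation 10 lineage 1 and 0 with lineage as a replicate block. With each library centred it was 35, of which 34 were higher and 1 lower in generation 10. EPF2 alone had an unadjusted p under 0.05 (p = 0.00816), where 8.29% of all genes had one, and it alone reached p = 0.0286 by the exact permutation test. The differences ran from -0.52 for EPF2 to 0.41 for TMM, with a median of 0.23 against 0.16 over all genes. That median was 0.012 without RIL149 generation 3 lineage 2 (0.038 over all genes), 0.046 without RIL149 generation 10 lineage 2, 0.38 without RIL50 generation 10 lineage 2 and 0.073 with each library centred. None of the 10 had a peak in 4 libraries of one line and 0 of the other, as 0.281% of protein-coding genes had for RIL149 alone and 0.459% for RIL50 alone. None was split so by generation, as 0.23% of genes were for generation 10 alone and 0 were for generation 3 alone. The interaction of line and generation passed for 3.51% of the 19043 genes and for none of the 8 (the lowest unadjusted p was 0.0261, for EPF2).

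Of 34 other genes of the pathway, 17 had a peak in all 8 libraries, 11 in 1 to 7 and 6 in none. Among signalling genes, 5 of 6 kinase genes (the mitogen-activated cascade and BIN2), 3 of 4 receptors and coreceptors, and 3 of 6 ligands and proteases had a peak in all 8. Of the genes of transcription and division, 2 of 10 had a peak in all 8 libraries and 4 of 10 in none, and 1 of 4 polarity genes and 3 of 4 guard cell genes had one in all 8. The genes with no peak were POLAR, whose protein marks the cell pole, the MYB gene MYB88, SOL2, the cell cycle genes CDKB1;1 and CYCD5;1, and SLAC1.

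**Figure D5:**
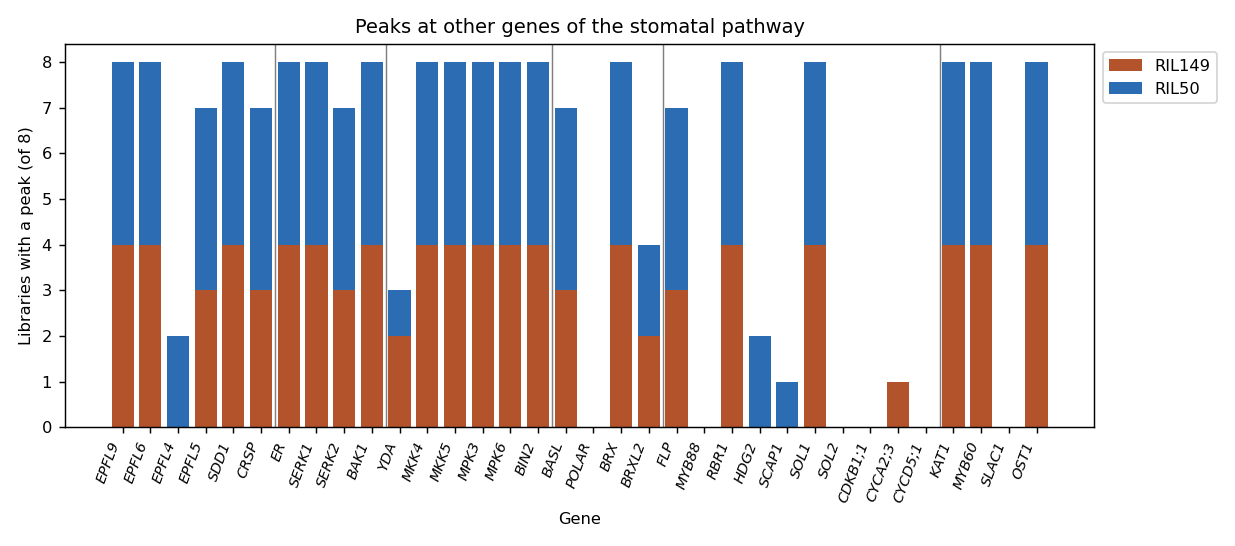
Number of libraries, of 8, with a peak in the window of each of 34 other stomatal pathway genes, stacked by line (orange, RIL149; blue, RIL50); grey lines divide ligands and proteases, receptors, kinases, polarity, transcription and division, and guard cells. The bars of 17 genes reach 8, and EPFL4, HDG2 and SCAP1 have peaks in RIL50 libraries only.

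Several of the partial patterns again missed RIL149 generation 3 lineage 2 alone. That was so for the peptide gene EPFL5, the protease gene CRSP, whose product cleaves the EPF2 precursor, the coreceptor gene SERK2, the polarity gene BASL and the MYB gene FLP, each with peaks in 3 RIL149 and 4 RIL50 libraries. The kinase gene YDA had peaks in 2 RIL149 libraries and 1 RIL50 library. The guard cell factor gene SCAP1 had 147 bp covered in RIL50 generation 10 lineage 2, and the cyclin gene CYCA2;3 had 1 bp in RIL149 generation 10 lineage 1. ER, the receptor gene mutated in Landsberg erecta, was covered over 1135, 896, 733 and 785 bp in RIL149 and 759, 258, 561 and 470 bp in RIL50. These groups overlapped, and the log2 difference of 0.74 (SE 0.29) did not pass (limma, adjusted p = 0.526).

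BRXL2, a relative of the polarity gene BRX, was the 1 pathway gene of 26 tested that passed for generation. It was covered over 158 and 151 bp in RIL149 generation 10 and 145 and 144 bp in RIL50 generation 10, and had no peak in any generation 3 library. The log2 difference was 1.32 (SE 0.09; limma, adjusted p = 0.0038). The generation 3 libraries, at 0 bp throughout, add no spread to this SE. These peaks were weak, with folds of 2.08 to 2.83, and the gene no longer passed with each library centred (adjusted p = 0.0603), with a pseudocount of 500 bp (0.0664), with the replicate block (0.111) or with peaks of a −log10 q of at least 5 (0.666). BRXL2 was not tested, with a peak in fewer than 2 libraries, when equal numbers of peaks were taken per library. The same held in the gene body alone and with peaks nearer to another gene left out. Across all genes 0.23% shared a peak in every generation 10 library and in no generation 3 library. At an unadjusted p under 0.05 for generation were 6 of the 26 (EPFL9, EPFL5, CRSP, MKK4, BRXL2 and HDG2), where 8.29% of all genes were. Of these the kinase gene MKK4 was also separated, with 557 and 522 bp covered in RIL149 generation 10 and 649 and 699 bp in RIL50 generation 10, against 490 and 216 bp in RIL149 generation 3 and 421 and 395 bp in RIL50 generation 3, as 3.95% of all genes were in that direction. For the line comparison 0 of the 26 passed limma, where 1.39% of all genes did, and 5 had an unadjusted p under 0.05 (SDD1, ER, MKK5, HDG2 and OST1), where 9.48% of all genes had. Of these SDD1 and MKK5 were separated between the lines, with less covered in RIL149, as 3.68% of all genes were in that direction.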

How the data were processed

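The deposited data were 1 list of peaks per library, called separately, and per the submitters' processing notes Trimmomatic 0.39, BWA 0.7.17, Picard and MACS2 2.2.9.1 were used with the TAIR10 build. TAIR10 is the Columbia accession, which is not a parent of these lines. For mapping filters and any Tn5 shift of reads, the setting is not given in the sources used here. Each list deposited by the authors gives a fold enrichment ratio at the summit, a −log10 p-value and −log10 q-value, and a score for display. Read counts were not used, so covered length and peak position were the measures compared, and the authors' folds only ranked peaks within a list. Depth was read from the folds: the caller's fold is the summit pileup plus 1 over the local background plus 1, and whole-number pileups solved this for at least 99.89% of up to 3000 peaks per library.

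Gene positions came from a RefSeq table of TAIR10.1, in which all 10 identifiers matched. Its positions are not printed. In 25 of 25 stretches of 5 Mb, peaks and genes lined up best within 250 bp, and 9 of the 10 genes lie in such stretches (TMM does not). Peaks were assigned by an overlap of at least 1 bp. limma 3.58.1 (R 4.3.3), with line and generation as terms and Benjamini-Hochberg adjustment over all genes or regions, was the test, with a pseudocount of 100 bp and a threshold of 0.05. It was tested on simulated data with planted changes between the lines. The smallest were not recovered and larger ones only in part, so not passing does not show the absence of a difference. Exact permutation tests were two-sided over libraries, run for each gene with a peak and both comparisons. Their arrangements took all 8 libraries freely, without regard to the other factor or to lineage. All 10 genes were named by rule, with other pathway genes not present in all 8 libraries and ER. Outside that rule, EPFL9, MKK4, SDD1, MKK5 and OST1 were named for an unadjusted p under 0.05 by limma. KAT1 and MYB60 were named as guard cell markers. The genes and lists were chosen with earlier results of these data known. Tests of peak position, the interaction and the depth covariate were added after values had been seen. Same-numbered lineages were checked for pairing: the correlation of their deviations was 0.00204 in RIL149 and 0.0134 in RIL50, so lineage was not used as a block in the reported values.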

Additional observations from a re-analysis of the deposited data

Results flagged for a closer look

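In groups of 4 libraries, 10 of 40 checks of covered length found 1 library far from the other 3. No chance rate is set beside this count. Each library was checked both in its line and in its generation, and several groups hold tied values or values of 0 bp. Of these, 3 picked out RIL149 generation 3 lineage 2, the library with the fewest peaks, as the lowest of its line: SPCH at 367 bp, MUTE at 141 bp and ICE1 at 0 bp. The library RIL149 generation 10 lineage 2, which has the most peaks, was the highest of its line and of its generation at FAMA (21 bp in each) and at ERL2 (164 bp in each). The others were at window ends or spanned a few bp: EPF1 at 153 bp in RIL50 generation 3 lineage 1, where the other RIL50 libraries were at 151 bp, EPF1 at 103 bp in RIL149 generation 10 lineage 1 among the generation 10 libraries, and ERL2 at 16 bp in RIL50 generation 3 lineage 1, the 1 RIL50 library above 0.

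For 2 pathway genes the generation difference differed between the lines by limma's interaction term. HDG2, a homeodomain gene of the epidermis, had 0 bp covered in RIL50 generation 10 against 221 and 212 bp in RIL50 generation 3, and 0 bp in all RIL149 libraries, a difference of 1.66 on the log2 scale (adjusted p = 0.0151). EPFL4, a peptide gene of the EPF family, had 0 bp in RIL50 generation 10 against 227 and 134 bp in RIL50 generation 3, and 0 bp in all RIL149 libraries (1.47, adjusted p = 0.0479). The interaction passed for 3.51% of all genes. Each of these 2 calls rests on 2 libraries, and the groups at 0 bp throughout add no spread to the SE. The strongest folds were 2.28 and 4.94 at HDG2 and 2.13 and 2.99 at EPFL4. No alternative setting was run for the interaction.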

How the results depend on the processing

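Of 297 alternative values over 15 results, 278 kept their direction and side of the threshold or stayed within 1.5 times, 4 no longer passed, 1 newly passed, 14 moved and 0 reversed. The 278 include counts of stomatal genes passing, or split by line or by generation, that were 0 in every setting. Apart from BRXL2, single-gene values that stayed the same kept their sign and again did not pass. Counts had no label for a reversal. The 4 that no longer passed were BRXL2, at a −log10 q of at least 5 (log2 0.66), a pseudocount of 500 bp (0.38), centring (1.16) and the block (1.32). The 1 that newly passed was the SPCH edge without RIL149 generation 3 lineage 2. Settings where BRXL2 dropped out of the test are not among the 297. For covered length, none of the 10 stomatal genes passed in either comparison under any alternative run. Adjusted p-values ranged from 0.184 to 0.832 for SPCH covered length by line and from 0.297 to 1 for EPF2 by generation. The count of genes passing by line (264) was 406 with equal numbers of peaks per library, 130 in the gene body alone, 13 among genes with a peak in at least 6 libraries and 443 with centring, and 223 to 419 leaving out each library, highest without RIL149 generation 3 lineage 2. By generation (60) it was 28 in the gene body, 1 with a pseudocount of 500 bp, 0 among genes in at least 6 libraries (973 at an unadjusted p under 0.05), 35 with centring, and 53 to 163 leaving out each library, with 163 without RIL50 generation 10 lineage 2, 127 without RIL50 generation 3 lineage 1 and 108 without RIL50 generation 10 lineage 1. Stomatal genes with a peak in all libraries numbered 2 in the gene body alone, against 5, and 5 to 7 leaving out each library. With log2 background pileup as a covariate, 244 genes passed by line and 48 by generation.

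With a replicate block in limma, 234 genes passed by line and 0 by generation (951 at an unadjusted p under 0.05). The block was the lineage number for line, and each lineage within its line for generation. Under it EPF2 had an adjusted p of 0.782 by generation and SPCH 0.631 by line. Same-numbered lineages did not deviate together and each line has only 2 pairs, so a call lost under the block is not read as a weaker effect. Absence is relative to what each library could list. The MUTE peak of RIL149 generation 3 lineage 2 had a fold of 2.36, where the weakest peaks listed at that library's background had 1.85. That background was a pileup of 12.5, against 8.7 in RIL50 generation 3 lineage 1, which listed 19193 peaks. Why RIL149 generation 3 lineage 2 listed fewer peaks was not tested. Folds, widths and edges depend on the caller's threshold in each library.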
